A study of Drosophila melanogaster with 2 samples.

Results

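The fly genes sbb, for, bun, cbt, CHES-1-like, NFAT, crp, Raf, Lrch and CG4935 each had several BuGZ-GFP peaks away from promoters. These 10 of 18277 annotated genes were chosen by the counts of the reproducible list, in which each was the gene nearest to 4 or 5 reproducible BuGZ-GFP summits lying more than 250 bp from any transcription start site (TSS), called distal summits here. Chromatin immunoprecipitation with sequencing had been carried out on whole embryos of mixed sex, 0 to 16 h old, of a transgenic Drosophila melanogaster line that stably expressed CG17912 (BuGZ) with GFP fused to its C terminus. Both libraries, replicates 1 and 2 of the only group, carried this transgene, so there was no second condition and no comparison between groups. Sonicated fragments had a size range of 200 to 800 bp, and all cells of the embryos were pooled, so no summit could be placed in a tissue. The sample descriptions call these libraries input controls, while their antibody label and the parent alignments of the peak lists describe an immunoprecipitate set against a control. This conflict in the labels was not settled, and the libraries were read as immunoprecipitates.

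BuGZ carries zinc fingers and is best known as a partner of Bub3 at kinetochores during mitosis. Developmental genes with long introns often carry enhancers far from their promoters, where several transcription factors bind and from which expression in particular cells is controlled. A peak in an intron is a place where chromatin was recovered, and it does not by itself show an enhancer or name the gene it acts on. Of the 10 genes, 6 encode regulators of transcription. They are sbb (scribbler, a nuclear corepressor), bun (bunched, a TSC-22 family leucine zipper protein), cbt (cabut, a Krüppel-like zinc finger factor), CHES-1-like (a forkhead factor), NFAT (a Rel-type factor) and crp (cropped, the fly homologue of the basic helix-loop-helix factor AP-4). Another 2 encode protein kinases, for (foraging, a cGMP-dependent kinase) and Raf (the kinase that links Ras to the MAP kinase cascade). Lrch encodes a protein with leucine-rich repeats and a calponin homology domain, and CG4935 is given by its identifier.

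For 8 of the genes, the sequence at the strongest of the distal summits counted for that gene is shown. A reader can compare their base composition and short motifs directly. At bun, CHES-1-like and crp a stronger reproducible summit inside the gene body was nearest to another gene and is not the one meant. Each run is 101 bases centred on the summit, from the dm6 reference genome (Release 6), plus strand, 5′ to 3′. Capitals mark matches, on either strand, to the motifs whose letters are given with the motif counts. None of these intervals touches an annotated exon.
for summit 2, chr2L:3655756-3655856: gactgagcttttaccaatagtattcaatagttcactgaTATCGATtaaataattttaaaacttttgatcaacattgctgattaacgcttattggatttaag
bun summit 3, chr2L:12487438-12487538: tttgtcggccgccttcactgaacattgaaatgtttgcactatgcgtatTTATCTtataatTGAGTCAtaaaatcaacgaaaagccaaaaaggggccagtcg
cbt summit 3, chr2L:481062-481162: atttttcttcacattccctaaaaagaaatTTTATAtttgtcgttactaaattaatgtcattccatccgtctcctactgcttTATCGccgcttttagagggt
CHES-1-like summit 3, chrX:7700376-7700476: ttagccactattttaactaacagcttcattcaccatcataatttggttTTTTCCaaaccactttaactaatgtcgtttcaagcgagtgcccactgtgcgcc
NFAT summit 3, chrX:13640460-13640560: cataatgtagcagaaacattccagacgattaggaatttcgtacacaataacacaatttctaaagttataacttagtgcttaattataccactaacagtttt
crp summit 3, chr2L:16284836-16284936: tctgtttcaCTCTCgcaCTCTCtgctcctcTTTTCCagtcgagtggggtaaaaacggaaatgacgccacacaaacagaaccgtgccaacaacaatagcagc
Raf summit 2, chrX:2297691-2297791: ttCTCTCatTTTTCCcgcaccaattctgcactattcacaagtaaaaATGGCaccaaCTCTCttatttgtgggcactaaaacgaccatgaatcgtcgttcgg
CG4935 summit 2, chr2L:16269573-16269673: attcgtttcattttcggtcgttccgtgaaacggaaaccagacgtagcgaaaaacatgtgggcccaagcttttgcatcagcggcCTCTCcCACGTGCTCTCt
A GAGAG match (written CTCTC on the other strand) stands in the Raf, crp and CG4935 sequences, GGAAAA (or TTTTCC) in those of Raf, crp and CHES-1-like, and no searched motif in that of NFAT.

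The other distal summits of cbt and CG4935 are shown as well, since these are the 2 short genes of the set and their summits lie inside the introns of a neighbour.
cbt summit 1, chr2L:484407-484507: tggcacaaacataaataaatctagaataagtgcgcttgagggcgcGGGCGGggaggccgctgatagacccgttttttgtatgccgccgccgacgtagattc
cbt summit 2, chr2L:482626-482726: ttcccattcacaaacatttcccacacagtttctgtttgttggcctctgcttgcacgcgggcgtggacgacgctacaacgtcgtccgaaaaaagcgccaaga
cbt summit 4, chr2L:479980-480080: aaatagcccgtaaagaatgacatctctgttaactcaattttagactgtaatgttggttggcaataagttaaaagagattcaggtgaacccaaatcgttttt
CG4935 summit 1, chr2L:16268199-16268299: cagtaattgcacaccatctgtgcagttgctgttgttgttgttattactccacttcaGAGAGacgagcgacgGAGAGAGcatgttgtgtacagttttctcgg
CG4935 summit 3, chr2L:16271618-16271718: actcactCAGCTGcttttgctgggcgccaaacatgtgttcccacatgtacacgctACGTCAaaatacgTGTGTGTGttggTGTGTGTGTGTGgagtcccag
CG4935 summit 4, chr2L:16272862-16272962: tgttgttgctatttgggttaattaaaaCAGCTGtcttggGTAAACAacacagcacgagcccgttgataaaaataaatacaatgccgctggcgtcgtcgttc
Within one locus these sequences differ in content. The first cbt summit holds a GC box (GGGCGG) and its next neighbour none of the searched motifs within these 101 bases, while the CG4935 sequences hold GAGA sites, an AP-4 type E-box (CAGCTG) at the third and the fourth summit, and a dinucleotide repeat at the third.

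The values that chose the genes were counts in the reproducible list. That list holds 2413 summits, 1056 of them distal, and 42 distal summits were nearest to one of the 10 genes. Of the 18277 genes, 866 (4.74%) had at least 1 distal summit by nearest TSS, 722 of these had exactly 1, and 19 (0.104%) had 4 or more. The rule's own threshold therefore accounts for the 10 genes standing among these 19, and no test was made on that count. Just inside it, sbb and for had 5 distal summits and the other 8 had 4. Just outside it, 28 genes had 3, of which ph-p (signal value of the best distal summit 765), Tlk (510), ush (467), HmgZ (433) and CR46447 (404) had the highest. A further 9 genes met the count and are not among the 10, namely ftz-f1, Eip75B, Hnf4, shn, rdx, dnc, px, lncRNA:CR44366 and lncRNA:CR44619, so the 10 are a selection and not the whole class. Signal values are the authors', on a scale that is not stated, and were compared only by rank within a list. Across the reproducible list they ran from 101 to 1538 with a median of 134. The lists give no read depth, so the counting error of a single summit could not be computed.

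**Figure D1:**
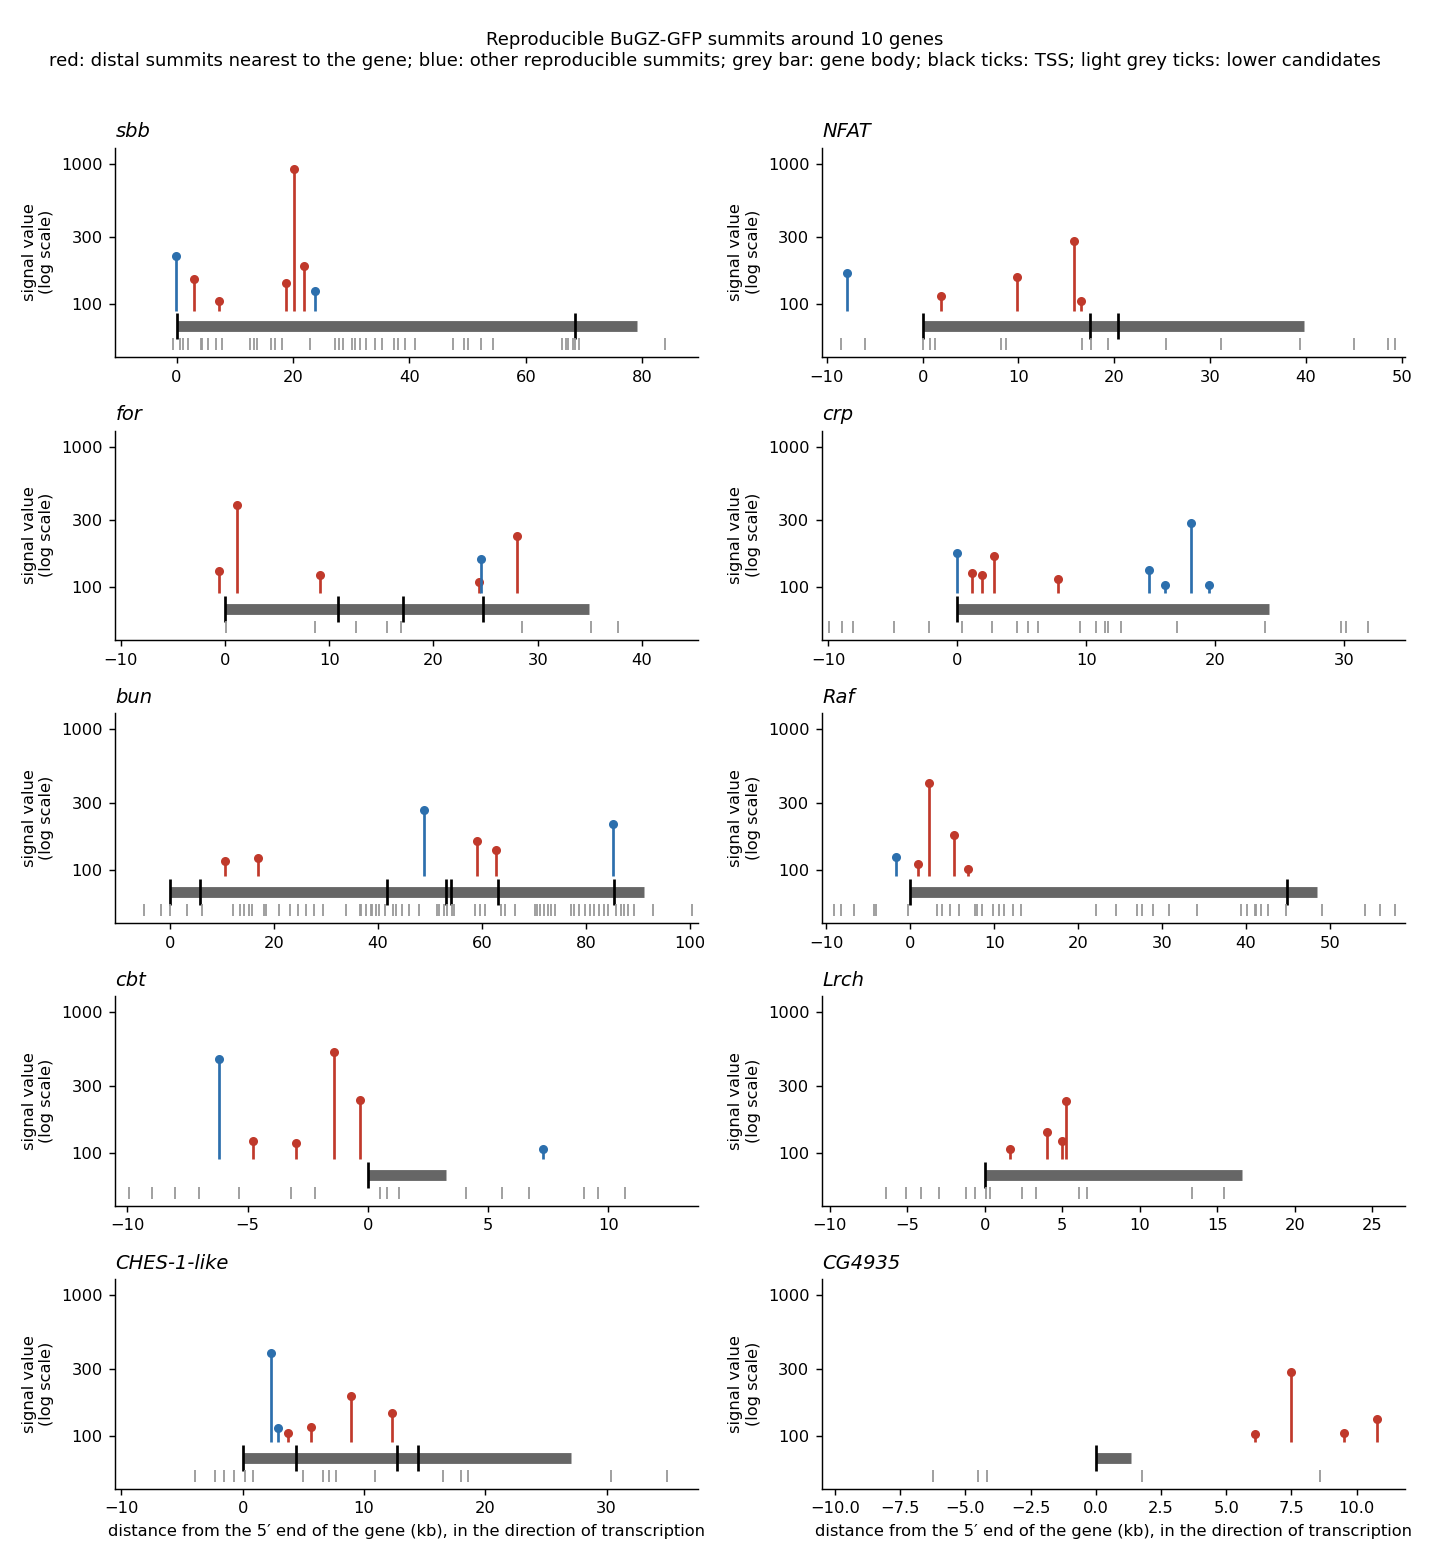
Each panel is 1 gene with 10 kb on each side; the x axis is the distance from the 5′ end of the gene in kb in the direction of transcription and the y axis the authors' signal value in the reproducible list. Red marks are the 42 distal summits nearest to the gene, blue marks other reproducible summits, the grey bar the gene body, black ticks TSS and light grey ticks lower candidates of the pooled list. The 4 cbt and 4 CG4935 summits lie outside the gene bodies, and the sbb summit of signal value 921 is the highest of all.

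Among the transcription regulators, sbb (FBgn0285917; 2R, 18278198 to 18357296, minus strand; 79099 bp) held the strongest site of the whole set. Its 5 distal summits lay 3050, 7232, 18823, 20111 and 21971 bp downstream of the gene's start, all in the first intron of 49364 bp. Their signal values in that order were 151, 105, 142, 921 and 187. They ranked 1467, 1847, 2106, 5 and 1800 in the replicate 1 list and 649, 3633, 1071, 10 and 373 in the replicate 2 list. One summit therefore stood far above its neighbours in both replicates, and it ranked 8 in the reproducible list, while the other 4 ranked from 539 to 2223. A promoter summit was also present at sbb, with a signal value of 219 and rank 393 (378 and 388 in the replicates).

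The bun gene (FBgn0259176; 2L, 12455540 to 12546611, minus strand; 91072 bp), the longest of the 10, has 7 annotated TSS, and its summits were the most spread out. They lay 10660, 16935, 59123 and 62656 bp from the gene's start, the first pair in an intron of 19089 bp and the second pair in one of 14522 bp. Signal values in that order were 116, 121, 162 and 139. Replicate 1 ranks were 1939, 2894, 1177 and 600, and replicate 2 ranks 2081, 1357, 620 and 6972. No summit of bun stood above the others by much, and the last of them was high in replicate 1 and low in replicate 2. The TSS of t-cup, CG43051 and snoRNA:CG43051-a lie between them, and a stronger distal summit inside the bun body (signal value 266, rank 233, replicate ranks 376 and 182) was nearest to t-cup, which is why it is not counted among the 4. The bun promoter summit had a signal value of 211 and rank 423.

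The summits of cbt (FBgn0043364; 2L, 476446 to 479688, minus strand; 3243 bp) all lay upstream of the gene and none inside it. Their distances from the cbt TSS were 4769, 2988, 1424 and 342 bp, with signal values of 121, 118, 526 and 238. They ranked 2929, 4723, 62 and 339 in replicate 1 and 654, 1185, 19 and 298 in replicate 2. The summit 1424 bp upstream was the second strongest of the 42, at rank 33 of the reproducible list. All 4 lie within the first intron, 13185 bp long, of the neighbouring gene ush (u-shaped, a cofactor of GATA factors), which itself narrowly missed the count with 3 distal summits. The next summit into ush, nearest to ush and lncRNA:CR46258, had rank 47 (signal value 467, replicate ranks 78 and 30). The body of ush held 7 distal summits, so the assignment to cbt rests on the distance to its single TSS. No promoter summit was called at cbt.

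CHES-1-like (FBgn0029504; X, 7682338 to 7709385, minus strand; 27048 bp) carried distal summits 3744, 5617, 8959 and 12317 bp from its start, within first introns of 18998 and 14781 bp that begin at different TSS. Signal values were 105, 115, 193 and 145. The replicate 1 ranks were 3194, 1450, 622 and 1078 and the replicate 2 ranks 2567, 2431, 581 and 1055, so the order of the stronger pair held in each replicate. A pair of further distal summits in the same gene body was nearest to the TSS of lncRNA:CR43287, and one of them, with a signal value of 391 and rank 85 (90 and 93 in the replicates), exceeded all 4 counted for CHES-1-like. With protein-coding TSS only, CHES-1-like would have had 6. No promoter summit was called there.

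NFAT (FBgn0030505; X, 13624745 to 13664568, plus strand; 39824 bp) had its 4 distal summits 1871, 9901, 15765 and 16480 bp from its start, in the first intron of 23787 bp. Their signal values were 115, 156, 282 and 106, with replicate 1 ranks of 1314, 672, 180 and 2091 and replicate 2 ranks of 4586, 2154, 213 and 735. The third of these was the strongest in both replicates. The fourth lay close behind the third and was weak in replicate 1, while its match in replicate 2 was centred 119 bp away.

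The crp gene (FBgn0001994; 2L, 16263556 to 16287730, minus strand; 24175 bp) and CG4935 (FBgn0028897; 2L, 16262141 to 16263483, plus strand; 1343 bp) share a locus. The 4 crp summits lay 1100, 1867, 2844 and 7758 bp from its start, in the first intron of 7928 bp, with signal values of 125, 121, 167 and 114. They ranked 2945, 4392, 4272 and 1687 in replicate 1 and 1424, 1228, 169 and 2269 in replicate 2. The replicate 1 candidates matched to the first 3 were centred 78, 102 and 69 bp away. The strongest summit in the reproducible list was thus high in replicate 2, and its offset match in replicate 1 was low. The 4 summits counted for CG4935 lay 6108, 7482, 9527 and 10771 bp from its TSS, past its 3′ end and inside the second and last crp intron of 11845 bp. Their signal values were 103, 284, 104 and 132. Replicate 2 ranked them 1253, 123, 3030 and 962, and replicate 1 ranked the last 3 at 241, 3143 and 2187, with no candidate within 200 bp of the first. By gene body, CG4935 would therefore have none and crp 8, the same number as lncRNA:CR44357 and more than any other gene. A crp promoter summit had rank 619, with ranks of 284 in replicate 1 and 7824 in replicate 2.

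Of the kinase genes, for (FBgn0000721; 2L, 3622074 to 3656953, minus strand; 34880 bp) had 4 annotated TSS and summits spread over 28553 bp. The first lay 579 bp upstream of the gene, the only one of all 42 outside any intron. The second lay 1147 bp downstream of the gene's start in an intron of 1122 bp, and the other 3 lay 1699, 435 and 3175 bp from later TSS in introns of 14752, 8022 and 3887 bp. In this order the signal values were 129, 381, 122, 109 and 230. Replicate 1 ranks were 2798, 124, 1712, 4046 and 373 and replicate 2 ranks 1310, 76, 2570, 4326 and 278. The second and the fifth summit were thus the strong ones in both replicates. The fourth lay 200 bp from a promoter summit of for, which had rank 768 (3283 and 472 in the replicates). The TSS of mir-4972 lies between the summits.

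At Raf (FBgn0003079; X, 2295466 to 2343870, plus strand; 48405 bp) the 4 summits lay close to the 5′ end of a long gene, 907, 2275, 5214 and 6887 bp from the TSS. All were in the second intron, of 43637 bp, near its 5′ side. The signal values were 111, 415, 178 and 102, the replicate 1 ranks 3011, 82, 440 and 3977, and the replicate 2 ranks 1246, 91, 1149 and 4061. The summit 2275 bp from the TSS ranked within the first 100 regions of each list. No promoter summit was called at Raf.

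Lrch (FBgn0032633; 2L, 17367511 to 17384115, minus strand; 16605 bp) had summits 1598, 4026, 5016 and 5239 bp from its TSS, in the first intron of 8721 bp. Signal values were 107, 142, 122 and 235. They ranked 4535, 539, 3529 and 358 in replicate 1 and 5173, 5483, 1018 and 448 in replicate 2. Only the last of them was high in both replicates, and the last pair, 223 bp apart, was the closest of any gene, within one sonicated fragment's length. Merging summits within 500 bp of each other left Lrch with 3 and no other gene below 4. No promoter summit was called at Lrch.

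The distal summits of these genes were placed in introns more often than other distal summits. Of the 42, 41 (97.6%) lay in an intron, against 646 of the 1014 other distal summits (63.7%). Of the 41, 29 (70.7%) were in a first intron, close to the 68.4% of other intronic distal summits, while 39 (95.1%) lay in an intron longer than 5 kb against 56.8%. The median length of the intron was 14522 bp against 6468 bp, and 9641 bp for intronic candidates of low rank. Summits further than 1 kb from a TSS made up 81.0% (34 of 42) against 56.4%, with a median distance of 3112.5 bp against 1279.5 bp. The rule asks for several summits away from any TSS at 1 gene, so these placements are partly given by it. The 42 summits come from 10 genes and are not independent, and no test was made.

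Neighbouring distal summits of one gene were mostly separate regions. Over 32 spacings the median was 1959 bp and the range 223 to 42188 bp, with 1 spacing under 500 bp, 5 under 1000 bp and 25 under 5000 bp. The other genes with several distal summits had a median spacing of 2834 bp over 181 spacings in 134 genes. Peaks in the pooled candidate list had a median width of 336 bp, so most neighbouring summits were further apart than one region is wide.

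Gene length was set against the counts. The median length of the 10 genes was 30964 bp, against 2164.5 bp over 13968 protein-coding genes, and 7 of the 10 were 20 kb or longer. Each window was the gene body with 10 kb on each side. Distal summits occurred at 0.0768 per 10 kb over the genome and at a median of 1.0 per 10 kb in the 10 windows. At the genome-wide rate the windows would hold between 0.164 (CG4935) and 0.853 (bun) distal summits, and they held 5.86 (bun) to 28.0 (cbt) times as many. Among genes whose window length was 0.8 to 1.25 times that of the listed gene, 1 of 161 had as many distal summits as sbb (0.621%), 2 of 126 as many as bun (1.59%), 7 of 462 as many as NFAT (1.52%) and none of 823 as many as crp. Of 1020 protein-coding genes of 20 kb or more, 19.1% had at least 1 nearest distal summit, against 4.74% of all genes, and 14 (1.37%) had 4 or more, against 0.104%. Long genes thus made up 14 of the 19 genes that met the count, and 7 of these 14 were among the 10. Most long genes, 80.9%, had none. These ratios start from genes picked for high counts, so they describe the size of the excess and are no evidence for it.

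**Figure D2:**
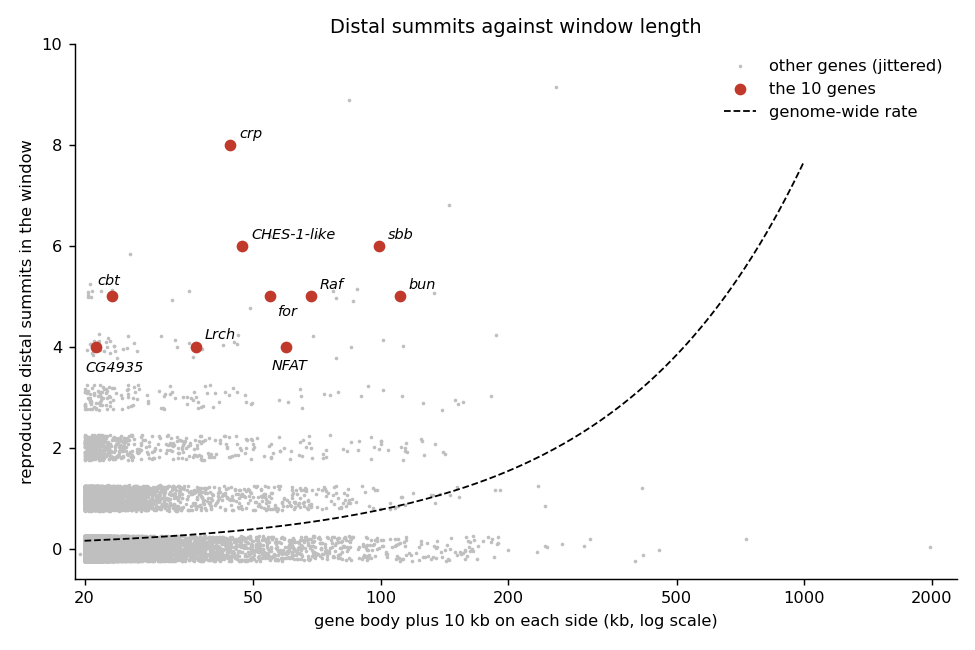
Each point is 1 gene; the x axis is the length of the gene body plus 10 kb on each side in kb (log scale) and the y axis the number of reproducible distal summits in that window, with a small vertical jitter for the other genes only. The dashed line is the genome-wide rate of 0.0768 distal summits per 10 kb, and all 10 genes (red) lie above it, crp with 8 summits the highest of the 10.

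Candidate regions below the reproducible list did not choose the genes and were also dense at these loci, though they come from the same libraries. The union of the 10 windows, 546 kb, held 54 reproducible summits, 48 of them distal and 6 at promoters, and 288 regions of the pooled candidate list. That is 5.28 candidates per 10 kb against 2.18 over the genome, a ratio of 2.42. Replicate 1 had 237 candidates there (1.99 times its genome-wide rate) and replicate 2 had 327 (2.75 times). With the reproducible regions left out, 234 candidates remained, or 4.29 per 10 kb against 2.01. Taken gene by gene, the density without reproducible regions ran from 1.46 per 10 kb at for and 2.34 at CG4935 to 6.03 at bun and 6.88 at cbt, with a median of 3.98. The 1013 other protein-coding genes of 20 kb or more had a median of 2.15. By this measure the gene for was the one below both that median and the genome-wide rate, whereas the summits of bun and cbt stood among many candidates. With reproducible regions included, the gene for had 2.55 candidates per 10 kb in the pooled list. It had 3.1 in replicate 1 and 2.92 in replicate 2, and each of these values exceeded the genome-wide 2.18. Of the pooled candidates in the windows, 18.8% were reproducible, against 8.04% of the whole list, a share that the choice of genes raises.

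**Figure D3:**
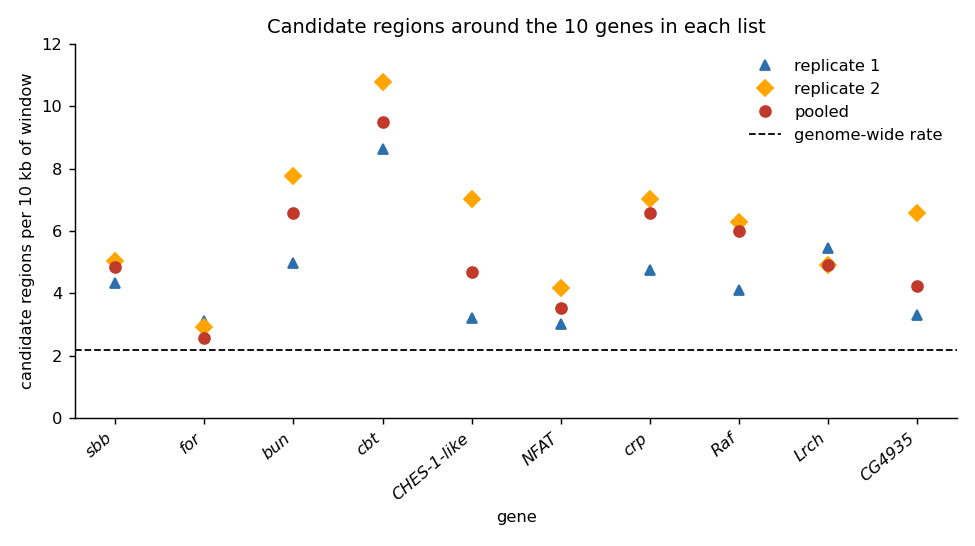
Candidates per 10 kb in the window of each gene, in the pooled, replicate 1 and replicate 2 lists, with the genome-wide rate for comparison. In the pooled list the values run from 2.55 (for, the lowest of the 10) to 9.47 (cbt). In replicate 1 the lowest is NFAT (3.01, against 3.1 at for).

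In the reproducible list the 42 summits were ranked much like other distal summits, while the replicates ranked them in opposite directions from the others. Their median rank in the reproducible list was 1298, against 1214.5 for the other distal summits, and 20 of 42 (47.6%) lay in its upper 50% against 49.6%. The 4 summits within the first 100 ranks were those at sbb (rank 8), cbt (33), Raf (71) and for (90). The median rank was worse than that of other distal summits in replicate 1 (1712 against 1171.5) and better in replicate 2 (1167 against 1376). Within 200 bp, replicate 1 held a matching candidate for 41 and replicate 2 for all 42. Within 50 bp these counts fell to 37 and 35, so some replicate ranks belong to candidates centred beside the summit. Among the 2413 highest regions of each replicate, replicate 1 held 27 (64.3%, other distal summits 78.0%) and replicate 2 held 31 (73.8% against 71.8%). Of the 42, 21 (50% against 53.5%) were in both. A further 5 were in neither, against 37 of the 1014 other distal summits. Of the 41 matched in both lists, 24 ranked better in replicate 2 (58.5% against 44.3%). Counted anew from those highest regions of replicate 1 alone, 14 of 18277 genes (0.0766%) had 4 or more distal summits, 3 of them among the 10 (sbb, CHES-1-like and NFAT). From replicate 2 alone 21 genes did (0.115%), 5 of them among the 10 (sbb, bun, cbt, crp and Raf). These counts can include regions that are not among the 42, as at CHES-1-like, where 3 of the 4 summits ranked within the first 2413 of replicate 1. Of the 10, sbb met the count in each list, and for, Lrch and CG4935 met it in neither. The number of genes with 4 or more was thus similar in the 3 lists (19 in the reproducible one), while fewer of the 10 were among them in either replicate.

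**Figure D4:**
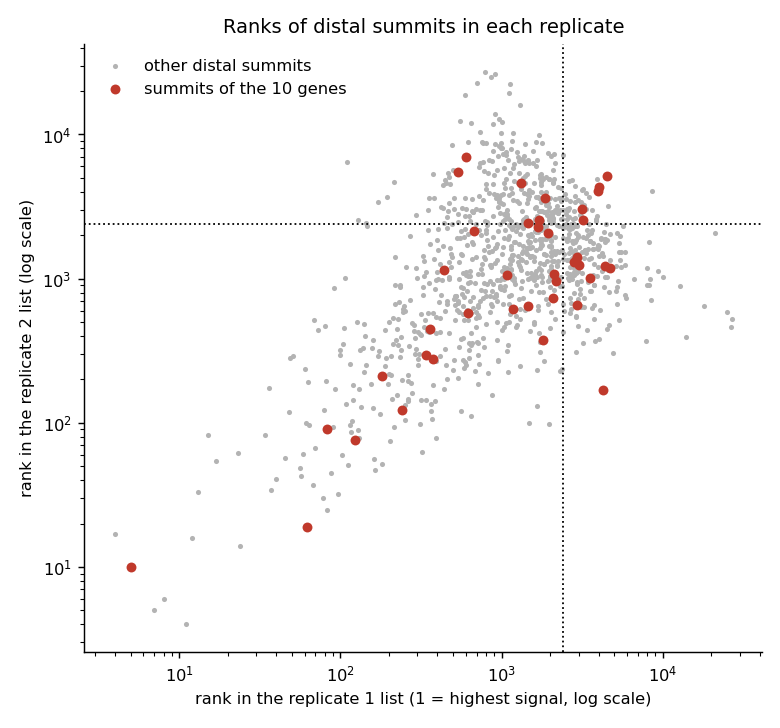
Rank of each distal summit in the candidate list of replicate 1 (x axis) and replicate 2 (y axis), log scales, where rank 1 is the highest signal. Red points are the 41 summits of the 10 genes found in both lists, grey points the other distal summits, and dotted lines mark rank 2413; 21 red points lie below both lines.

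Promoter summits stood at 4 of the 10 genes (sbb, for, bun and crp), against 9.43% of all genes, 16.2% of the other long protein-coding genes and 30.7% of 440 protein-coding genes with 4 or more TSS. The other 6 had distal summits and none within 250 bp of a TSS. Where both were present, the strongest distal summit outranked the promoter summit at sbb (8 against 393) and for (90 against 768), while it ranked lower at bun (723 against 423) and at crp (681 against 619). The promoter share of so few genes has little precision, and it was not tested.

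Base composition and short motifs were read within 100 bp of each summit, which the choice of genes did not use. The GC content of the 42 had a median of 39.3% (range 27.4 to 54.2), near the 40.3% of other distal summits and the 40.8% of promoter summits, and below the 45.8% of 12920 distal candidates of low rank. No summit of the 42 lay mostly in masked repeats, against 1.97% of other distal summits, a share too low to tell apart from 0 in 42. The median masked share of the window was 20.9% at the 42, against 16.9% at other distal summits. It was 13.9% at promoter summits and 10.4% at the low-ranked candidates. GAGAG, the core of the GAGA factor site, was present at 15 (35.7%), against 32.2% of other distal summits, 26.1% of promoter summits and 24.0% of the low-ranked candidates. It was found at 3 of the 4 summits of crp, Raf and CG4935 and at none of bun and Lrch. The longer GAGAGAG, which contains it, was at 3 (7.14%), against 8.97%.

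Motifs typical of the promoter summits were scarcer at the 42 than at promoter summits, while ATCGAT had a higher share than at other distal summits. TATCGATA, the DNA replication-related element (DRE), was at none of the 42, against 1.08% of other distal and 9.29% of promoter summits. Its inner ATCGAT was at 4 (9.52%), against 4.83% and 20.1%, and CGATA, the BEAF-32 site that overlaps both, at 7 (16.7%), against 23.4% and 43.8%. GGTCACAC, the core of the M1BP motif, and CAGGTAG, the Zelda site, were also at none, against 0.69% and 1.38% of other distal summits. The 42 summits come from 10 genes and are not independent. With so few regions, counts of 0 could not be told apart from these low shares of other distal summits. The largest difference from other distal summits was for GGAAAA, the core read by NFAT and other Rel factors, at 14 of 42 (33.3%) against 203 of the 1014 others, with 22.4% at promoter summits and 2978 of 12920 low-ranked candidates. Within 50 bp of the summit it was at 16.7%, against 10.1% of other distal summits.

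Motifs of the factors that some of these genes encode were counted at all 42 summits. GTAAACA, a forkhead motif, was at 6 (14.3%), against 12.8% of other distal and 4.38% of low-ranked regions, and CAGCTG, the E-box bound by AP-4, at 5 (11.9%), against 7.99%. CCACCC and GGGCGG, read by Krüppel-like and Sp factors, were at 4 (9.52%) and 2 (4.76%), against 9.27% and 8.68%. Those shares differ from other distal summits by a few regions each. CACGTG, the Myc E-box, was at 3 (7.14% against 2.96%), TGANTCA, the AP-1 site, at 4 (9.52% against 3.65%), and TGACGT, the core of the cAMP response element, at 4 (9.52% against 4.64%). CCGGAA of the ETS factors was at 1 (2.38% against 5.13%). GCCAT, the Pho core, was at 11 (26.2%, against 33.6% of other distal and 40.2% of low-ranked regions), AGATAA, read by zinc finger factors such as pannier and serpent, at 7 (16.7% against 14.6%), and TATAAA of core promoters at 10 (23.8% against 25.3%). Runs of CACACACA and of AAAAAAAA were at 2 regions each (4.76%), against 10.1% and 8.78%. A match is only a run of letters, and nothing about binding of the named factors follows from it.

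**Figure D5:**
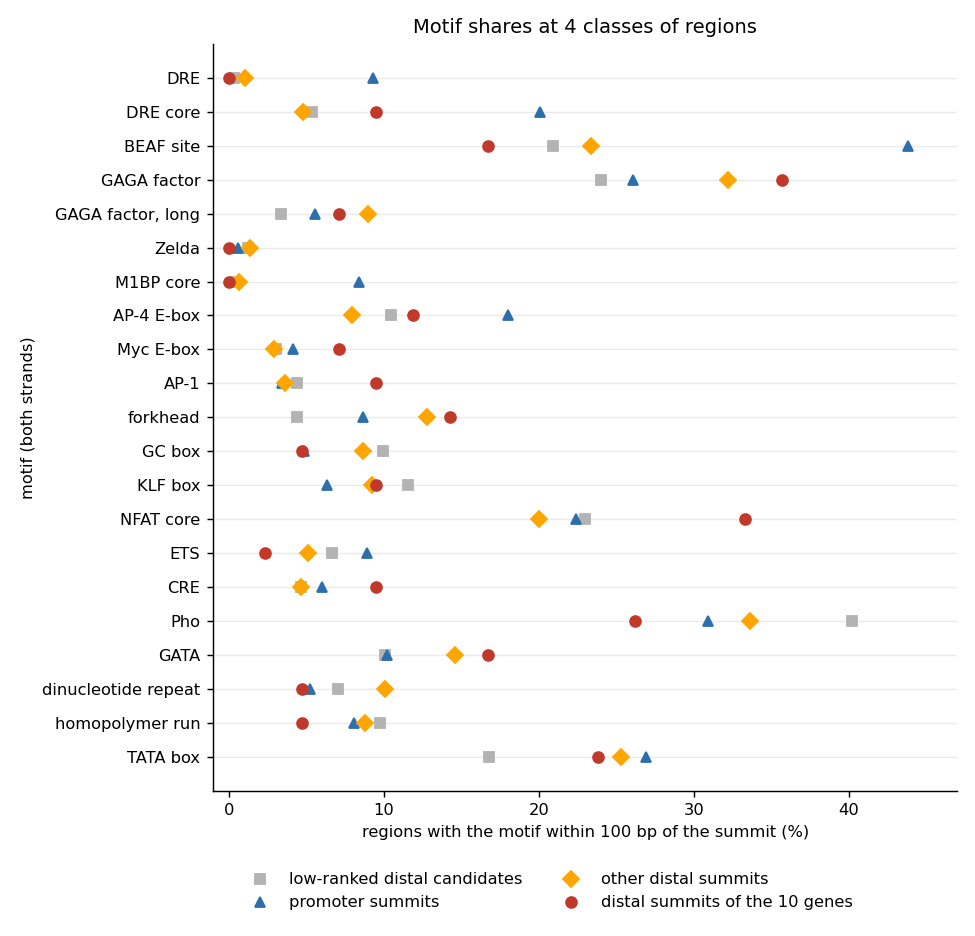
Share of regions (x axis, %) that hold each of 21 motifs (y axis, both strands) within 100 bp of the summit. Red circles are the 42 distal summits of the 10 genes, diamonds the other distal summits, triangles promoter summits and squares low-ranked distal candidates; the red circles lie nearer to the diamonds than to the triangles for DRE, BEAF, M1BP and ETS motifs, and stand apart to the right for the NFAT core.

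A set of short words drawn from the other peaks was shared by these summits. The 10 words of 6 bases that differed most in share between the other reproducible peaks and low-ranked candidates were mostly rich in A and T, and the first among them, AAATAT, lay within 50 bp of 26.2% of the 42 summits, against 26.6% of other distal summits and 12.6% of low-ranked distal candidates. TAAATA stood at 31.0% against 24.8% and 11.3%, and AAATAA at 28.6% against 23.4% and 13.7%. Other words were less frequent at the 42 than at other distal summits, with TAAACA at 11.9% against 19.6% and AAAATA at 16.7% against 23.1%. Any of the 10 was present at 31 of 42 summits (73.8%), against 73.0% of other distal summits, 74.1% of promoter summits and 48.3% of low-ranked distal candidates. By this measure the sequences at the 10 genes were like those of other reproducible peaks. The words were not matched for base composition, and the low-ranked distal candidates had a higher median GC content (45.8%, against 39.3% at the 42). Summits of one gene had few long words in common, with a shared run of 12 bases in 3 of 68 pairs (4.41%) against 16 of 793 pairs from different genes (2.02%).

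Families and pathways of the 10 genes were then counted, leaving out the 10 themselves. Among 21 other genes of the Ras and MAP kinase pathway, 7 had a promoter summit and 7 at least 1 distal summit, where 9.43% and 4.74% of all genes had one. Their strongest were sty (sprouty, an inhibitor of the pathway) with 2 distal summits and a best signal value of 299, pnt (pointed, an ETS factor that the pathway activates) with a promoter summit of 233, aos (argos, an inhibitor of the EGF receptor ligand) with 197 and spi (spitz, that ligand) with 149. None of the 21 reached 4 distal summits, as Raf did. The shares of all genes include noncoding genes, and the 21 were not matched for gene length. Among protein-coding genes of 20 kb or more, 19.1% had a distal summit, and 16.2% of those outside the 10 had a promoter summit.

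The next 4 lists stand beside the same shares of all genes, 4.74% with a distal and 9.43% with a promoter summit. Of protein-coding genes of 20 kb or more, 19.1% had a distal summit, and of those not listed 16.2% had a promoter summit. No list was matched for gene length. Of 16 other forkhead genes, 6 had a distal summit and 1 a promoter summit. The highest were at FoxK (2 distal summits, best signal value 283), fkh (250), slp2 (230) and foxo (2 distal summits, best 160). In the list of growth and Dpp signalling genes kept beside bun and sbb, 3 of 10 had a promoter summit and 3 a distal one, and shn (schnurri, a nuclear effector of Dpp) reached 4 distal summits with a best signal value of 221, while Mad had 196 and dpp 138. The cGMP list beside for had 2 of 8 with a distal summit, Pde6 (129) and Pde11 (105), and 1 with a promoter summit, Gycbeta100B (113). Of 8 other bHLH-zipper genes beside crp, 2 had a promoter summit, Max (134) and bigmax (130), and 2 a distal one, SREBP (121) and Mitf (105).

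In the remaining lists the shares to set beside are again the 9.43% of all genes with a promoter summit and the 4.74% with a distal one. The 10 other genes listed beside cbt were Krüppel-like and Sp factor genes and klu, another zinc finger gene. Of these, 1 had a promoter summit (Spps, 114) and 1 a distal one (klu itself, 105). Of 9 genes listed beside NFAT, 1 had a promoter summit (sra, a calcineurin regulator, 115) and none a distal one. Of 5 genes listed beside Lrch, 3 had promoter summits (Sur-8, 148; fliI, 126; scrib, 114) and 1 a distal one. In all 8 lists shn was the only other gene with 4 or more distal summits, against 0.104% of all genes, and the lists were chosen with earlier results known, so the counts are descriptions.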

How the data were processed

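The peak lists of a GFP-tagged BuGZ immunoprecipitation in 0 to 16 h embryos were used, 2 replicates of 1 group. Per the deposited read-me texts, the authors called candidates in each replicate against a control alignment to dm6 (Release 6). By the same texts, those that passed a cutoff on irreproducible discovery rate were kept as reproducible. Each of the 42 distal summits had the same rank in this list as in the pooled candidate list. Reproducible therefore names membership of this list, and not recovery of a summit in each replicate. Of the 42, 5 were among the 2413 highest regions of neither replicate. CG4935 summit 1 had no replicate 1 candidate within 200 bp. The aligner, the caller and the cutoff were not given in the sources used here. Regions carry a signal value set by the authors in the deposited narrowPeak files. Its scale is not stated, and it served for ranks within a list. The deposited summit offset in bp gave each summit position. For 77.5% of reproducible regions it is the middle of the interval. All candidate lists stop at 30000 regions, which reach into background, and an unlisted region may have ranked lower.

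TSS came from the Ensembl annotation (release 115) on 7 chromosomes, with coordinates 1-based. A summit more than 250 bp from every TSS was distal and was given to the gene with the nearest TSS. Windows were gene bodies with 10 kb on each side, and summits of different lists were matched within 200 bp. Low-ranked candidates were those in the lower 50% of the pooled list that overlap no reproducible peak. An intron is the shortest annotated one that holds the summit. Python 3.11.15, pandas 2.3.3, numpy 2.4.6 and matplotlib 3.10.9 were used, and the counting was tested on simulated data.

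The members, gene lists and motifs were chosen with earlier results of these data known, and no test was made. Named were the 10 genes, the 5 genes with 3 distal summits of highest signal value, genes whose body or TSS lies among the summits, and up to 4 genes per related list by signal value. The genes other than the 10 that also had 4 or more distal summits, and those with the most in their body, were named after their values were seen. In the related lists, Gap1 and fd68A were not found by symbol. Alternatives covered each replicate alone, the upper 50% of the list, other distances, windows and gene assignments. Whether the replicates came from separate collections is only as the labels state. Sequences are printed for 14 of the 42 summits, and the others are not reported here.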

Additional observations from a re-analysis of the deposited data

How the results depend on the processing

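Of the summary values, 20 of 31 under an alternative were within 1.5 times the reported count or within the spread between replicates. Using only the upper 50% of the reproducible list, the 42 distal summits became 20, the 54 summits in the windows 28, and the median density of 1.0 distal summits per 10 kb fell to 0.428. That density was 0.915 over gene bodies alone and 0.896 for summits beyond 500 bp from a TSS. With the highest regions of a single replicate in place of the reproducible list, distal summits ranged from 29 to 35, window summits from 40 to 49, density from 0.674 to 0.775 and median spacing from 1858 to 3370 bp. In the replicates' own candidate lists the median rank ranged from 1167 to 1712, and its order against other distal summits reversed, since these had 1171.5 in replicate 1 and 1376 in replicate 2. Candidates in the windows ranged from 237 to 327. Only 153 of 288 pooled candidates had a match in both replicates (53.1%, against 41.5% of all pooled candidates). Within 50 bp of the summit the median GC content was 38.1%, and the shares of GAGAG (16.7%), CACGTG (2.38%), GGAAAA (16.7%) and TATAAA (11.9%) fell with the shorter window, which holds fewer positions. The lists give no read depth, so whether a missing summit reflects shallow sequencing could not be measured. No paired analysis was possible because the series has a single group.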
